A study of Mus musculus with 4 samples.

Results

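NTD spine was compared with control spine, gene by gene, in E9.5 (embryonic day 9.5) embryos of the CD-1 mouse strain. The members were the protein-coding genes with an exon length of at least 300 bases and a mean of at least 1 FPKM over the 4 libraries of the study, a rule that 11187 of the 28765 genes in the deposited table met. FPKM counts reads per length of gene and per size of library. The control spine library came from CD-1 embryos whose treatment is given as control. The NTD spine library came from CD-1 embryos whose treatment is given as folate deficiency with neural tube defects (NTDs). NTDs were induced by methotrexate (MTX), injected into the peritoneum of the mother at 1.5 mg/kg on E7.5. A low-folate diet of more than 8 weeks is described for the parents in the text that all samples share. That text does not say whether the control mothers ate the diet or received an injection, and it does not say whether embryos were pooled or where the spine was cut from the rest of the embryo. Brain libraries of the same 2 conditions, 1 control and 1 NTD, were used for the mean of 4 libraries. Their values are also given beside single genes, some gene lists and the called genes.

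The neural tube forms when the neural plate bends, its folds meet at the dorsal midline and the overlying ectoderm fuses. In the spine this closure runs tailward behind a tail bud that keeps adding neural tube and mesoderm, while neurons are already being born further forward. Methotrexate is an antifolate, and it starves cells of the folate cofactors needed for thymidylate and purine synthesis.

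There was 1 library per group, so no difference has a replicate check, no test was made, and treatment cannot be told apart from any difference between the 2 spine libraries in litter, dissection or handling. The library totals recovered from the deposited values were 16272101 reads for control spine and 16605133 for NTD spine, and those of the brain libraries were 16911677 and 16470311. Each fold named below is a ratio of reads, each divided by its library total. Its 95% interval in parentheses is exact (Clopper-Pearson) and covers counting error only. Where a pair of levels is given, that of the control comes first. A log2 ratio is that of (FPKM + 1), which understates the difference for genes at low levels. Genes are counted as 2-fold or 1.5-fold different on this scale, so a gene at a low level can have a ratio of reads past 2-fold and not be counted. Both spine libraries carried the genes of their labelled region: summed over the trunk Hox list, which sets position along the trunk, they held 315 FPKM and 338 FPKM, against 2.90 FPKM in the control and 21.6 FPKM in the NTD brain. Both also held RNA of other tissues, among them blood, heart and yolk sac or gut, and their levels are given beside the results they move with. Reads of the Y-linked Ddx3y (5.61 FPKM in each) and of Xist (14.2 FPKM and 14.1 FPKM), which is transcribed from the inactive X chromosome, were present in both.

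Most genes stood at nearly the same level in both spine libraries. Of all compared genes, 98.1% lay within 1.5-fold and the median log2 ratio was -0.04. In NTD spine 10 genes (0.0894%) were higher by 2-fold or more and 29 (0.259%) were lower by as much, 39 in all (0.349%). By any amount 42.1% of genes were higher and 57.9% lower. These shares over all compared genes are the base for each list count below. The 10 higher genes were led by transcription factors and other products of the immediate early response (Fosb, Fos, Egr1 and Ccn1), and held Msgn1 of the presomitic mesoderm, Pyy, Nepn, Men1, Rpl35a and 1 unnamed gene model. The 29 lower genes held secreted carriers and other products of yolk sac, gut and liver (Apoa1, S100g, Apom, Apoa2, Afp, Ttr, Rbp4, Trf and Spp2), genes of newborn neurons and their precursors (Atoh1, Neurog1, Nhlh1, Hes5, Nefm, Ina and Tubb3), the brain patterning genes En2 and Otx2, and the blood genes Rhd, Hba-a1 and Pf4. Among the other lower genes were Ckb, Rps2, Spaca6, BC049730, Hist3h2ba and 1 unnamed model. All 39 had counting intervals that exclude equality. These intervals come from the same reads that made the calls, so they are no separate support. S100g, Spp2 and Pyy met the mean of 1 FPKM only through the spine library where they were high. Apoa1, Apoa2, Apom, Rhd and Atoh1 would not have reached this mean with no reads in control spine, and Msgn1 with none in NTD spine. In bulk tissue fewer cells of a type and less RNA per cell cannot be told apart. The exons of 7 of the lower genes (Ina, Rps2, Hes5, Trf, Otx2, Nefm and Spaca6) overlap another annotated gene, as do those of 35.1% of all compared genes, and how shared reads were counted is not given. Just inside the 2-fold line on the higher side were Nepn, 1700092M07Rik and Men1, and just outside it Cdx4, Junb and Ftl1-ps1. On the lower side Hba-a1, Ckb and Neurog1 were just inside, and Hbb-y, Cntn2 and Hba-x just outside.

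**Figure D1:**
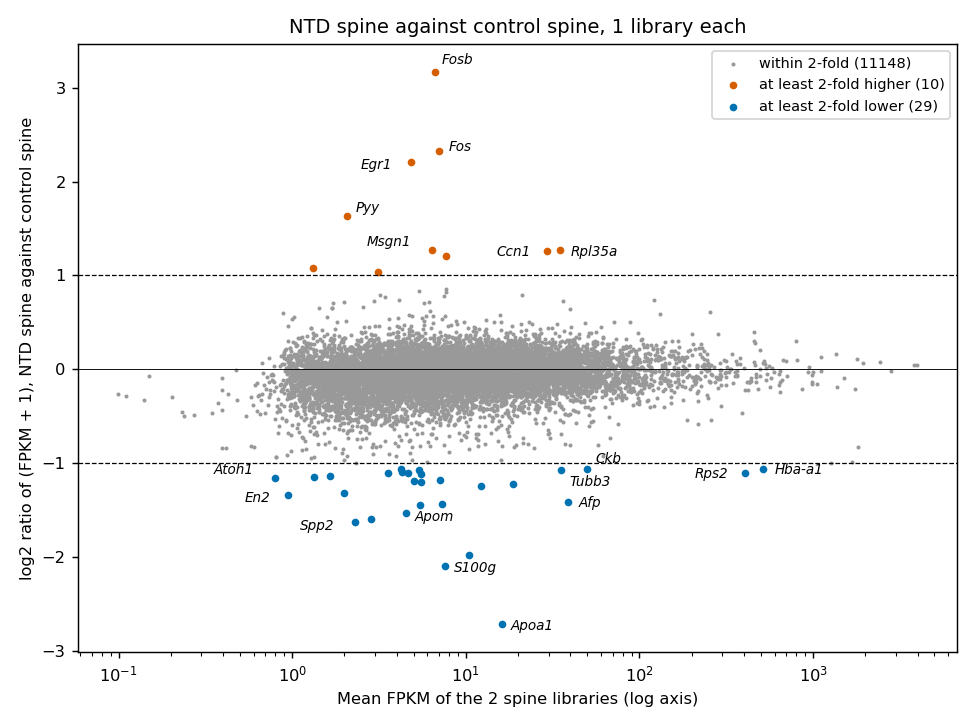
Log2 ratio of (FPKM + 1), NTD spine against control spine (vertical axis), against the mean FPKM of the 2 spine libraries (horizontal log axis), with 1 point for each of the 11187 compared genes and dashed lines at 2-fold. The 10 higher genes (orange) and 29 lower genes (blue) stand apart from a dense band around 0, with Fosb highest and Apoa1 lowest.

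The called genes were shorter and richer in GC than the rest. The median exon length was 2186 bases for the higher genes and 1686 for the lower genes, against 4489 bases over all compared genes. Their median GC contents were 54.9% and 54.5%, against 50.02%. Of 10 equal groups of genes ordered by GC, the lowest had a median log2 ratio of 0.06 and the highest -0.17, and of 10 ordered by length, the shortest held 15 of the 29 lower genes. With ratios adjusted for both properties, 10 genes were higher and 22 lower by 2-fold or more.

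Immediate early genes are switched on within minutes of a stimulus, without new protein synthesis, by kinases that act on factors already bound to their promoters. The promoters of 3 of the 4 members past 2-fold are printed because they share a short element. Each is the stretch of 250 bases before the RefSeq start (GRCm38.p6), written from 5′ to 3′ on the strand of the gene, and capitals mark TGACG, the core of the cyclic AMP response element, on either strand. The windows are chr12:85473640-85473889 for Fos (plus strand), chr7:19310046-19310295 for Fosb (minus strand) and chr3:145649986-145650235 for Ccn1 (minus strand).
Fos: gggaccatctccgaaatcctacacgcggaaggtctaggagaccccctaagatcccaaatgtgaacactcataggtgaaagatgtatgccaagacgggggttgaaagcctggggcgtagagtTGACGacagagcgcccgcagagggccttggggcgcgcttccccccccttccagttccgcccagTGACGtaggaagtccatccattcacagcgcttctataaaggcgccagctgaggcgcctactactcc
Fosb: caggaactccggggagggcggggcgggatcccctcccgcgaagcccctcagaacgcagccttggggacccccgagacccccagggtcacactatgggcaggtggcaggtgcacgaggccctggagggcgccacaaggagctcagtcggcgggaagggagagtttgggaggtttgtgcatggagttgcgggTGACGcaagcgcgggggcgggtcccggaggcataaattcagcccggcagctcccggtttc
Ccn1: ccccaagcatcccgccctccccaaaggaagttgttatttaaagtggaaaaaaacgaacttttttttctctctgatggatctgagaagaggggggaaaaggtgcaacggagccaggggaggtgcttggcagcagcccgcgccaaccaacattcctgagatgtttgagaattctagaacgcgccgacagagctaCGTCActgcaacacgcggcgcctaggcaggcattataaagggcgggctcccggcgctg
In Fos the element lies 129 to 125 and again 66 to 62 bases before the start, in Fosb 60 to 56 bases before it, and in Ccn1, as CGTCA on the other strand, 58 to 54 bases before it. Searched on both strands of windows of this length, TGACG was found in 17.8% of 32851 promoters and in 18 of the 29 immediate early genes of the list that had a window. The full element TGACGTCA and the CArG box bound by serum response factor were in none of these 3 windows and in 1.55% and 1.47% of all promoters. Sequence more than 250 bases before the start was not searched, so copies further upstream would have been missed. No window was at hand for Egr1.

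Fosb, an AP-1 family transcription factor gene (chromosome 7, 19302696 to 19310051 in GRCm38, as for the positions below), stood at 0.522 FPKM in the control and 12.7 FPKM in the NTD spine. In brain it stood at 0.0379 FPKM and 13.4 FPKM. Both NTD libraries thus lay far above both controls, and the control spine level was above that of control brain. In spine the level was 24.3-fold higher (18.5 to 32.7), on 53 and 1316 reads. Fos, a close relative and the founding member of the family, was at 1.67 FPKM in the control and 12.4 FPKM in the NTD spine, 7.41-fold higher (5.70 to 9.78). In brain its levels were 0.302 FPKM and 11.4 FPKM. Egr1, a zinc finger transcription factor induced by growth factor signalling, was at 1.08 FPKM and 8.61 FPKM, 7.95-fold higher (6.29 to 10.2), and in brain at 0.752 FPKM and 8.33 FPKM. For each of these 3 genes both NTD libraries lay above both controls. Ccn1, which encodes a secreted matrix protein and is a target of the YAP and serum response pathways, was already abundant in control spine at 16.9 FPKM and reached 41.8 FPKM in NTD spine, a 2.48-fold difference (2.24 to 2.74). In brain it was at 15.2 FPKM and 31.1 FPKM.

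The other members of the immediate early list differed less, and in both directions. Of 35 compared members, 22 were higher and 13 lower in NTD spine, 4 were past 2-fold, all higher, and the median log2 ratio was 0.10. Among all genes 42.1% were higher and 57.9% lower by any amount. At 1.5-fold, 6 members were higher, against 0.304% of all genes, and none lower, against 1.62%. Junb, an AP-1 partner of Fos, was just outside 2-fold on the scale used, at 3.58 FPKM and 7.15 FPKM. Jun, the other main partner, was at 15.2 FPKM and 27.0 FPKM, 1.77-fold higher (1.63 to 1.94). At the other end Gadd45g, a growth arrest gene also expressed in newborn neurons, was 1.35-fold lower (1.17 to 1.56) and Gadd45b 1.43-fold lower (0.907 to 2.27). Id1, an inhibitor of proneural proteins and the most abundant member of the list, was at 89.0 FPKM and 72.3 FPKM. Of the 44 genes of the list in the table, Egr2 and Egr4 were at 0 in control spine, and in NTD spine Egr4 was at 0 and Egr2 had 2 reads.

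**Figure D2:**
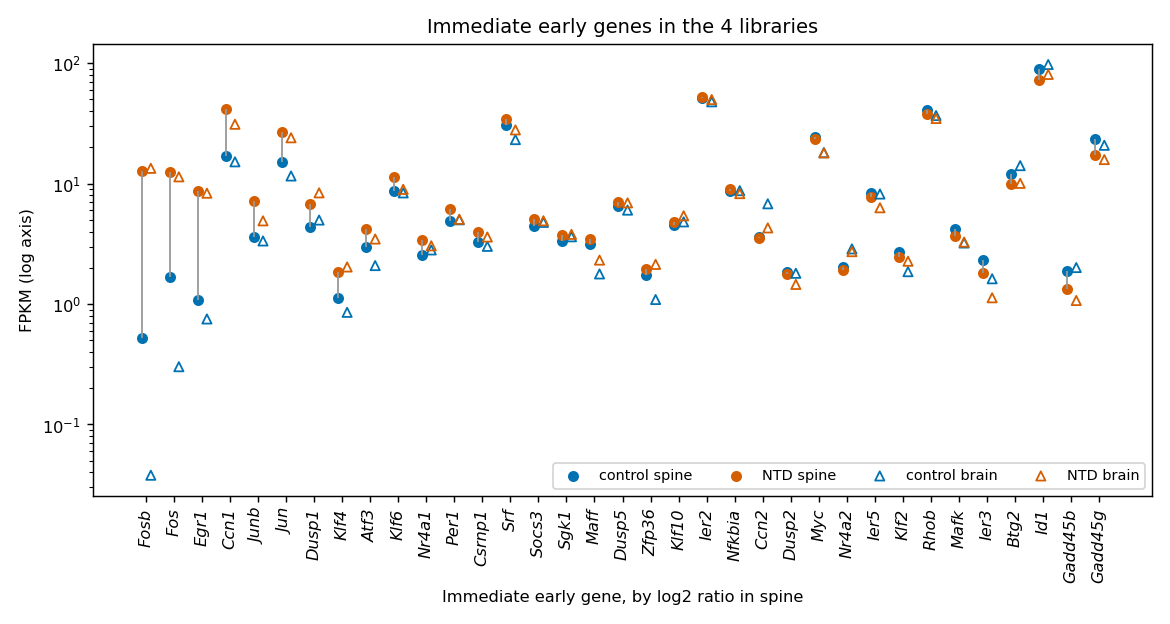
FPKM (log axis) of the 35 compared immediate early genes in the 4 libraries, ordered by their log2 ratio in spine, with circles for spine, triangles for brain, blue for control and orange for NTD, and a grey line joining the 2 spine values. Fosb, Fos and Egr1 show long lines that end between 8.61 and 12.7 FPKM in NTD spine, while most other members show nearly equal values.

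Chaperones of the endoplasmic reticulum (ER) fold secreted and membrane proteins and are induced together by the unfolded protein response. All 19 compared members were higher in NTD spine, with a median log2 ratio of 0.27 and none past 2-fold. Hspa5 and Hsp90b1 were the 2 members past 1.5-fold. Hspa5 (chromosome 2, 34771970 to 34777547), which encodes the lead chaperone BiP and the sensor that holds the response in check, was at 201 FPKM in the control and 307 FPKM in the NTD spine, 1.53-fold higher (1.49 to 1.56). Hsp90b1, the ER form of Hsp90, was at 105 FPKM and 159 FPKM, 1.52-fold higher (1.47 to 1.56). Dnajb9, a BiP cofactor, was 1.45-fold higher (1.24 to 1.69). At the low end P4hb, which forms disulfide bonds, was at 232 FPKM and 241 FPKM and Calr, the lectin chaperone calreticulin, at 323 FPKM and 363 FPKM. In brain 16 of the 19 were higher in NTD, with a median of 0.16, and Hspa5 stood at 211 FPKM and 315 FPKM.

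The Hspa5 promoter is printed because it holds the ER stress element, through which ATF6 acts on ER chaperone genes. The window is chr2:34771840-34772089 (GRCm38.p6, plus strand), the stretch of 250 bases before the RefSeq start, and capitals mark this element, CCAAT and CCACG separated by 9 bases of any kind, 65 to 47 bases before the start.
Hspa5: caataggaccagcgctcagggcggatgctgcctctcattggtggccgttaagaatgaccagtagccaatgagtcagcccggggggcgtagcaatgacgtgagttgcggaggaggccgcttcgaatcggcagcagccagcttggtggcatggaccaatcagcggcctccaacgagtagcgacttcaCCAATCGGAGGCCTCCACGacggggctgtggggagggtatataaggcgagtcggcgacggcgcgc
This motif was added to the search after the values of the list had been seen. It was in 7 of the 17 ER chaperones that had a window (Calr, Canx, Creld2, Dnajc3, Hsp90b1, Hspa5 and Pdia6) and in 0.113% of all promoters. No window was at hand for Hyou1 and Manf.

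Other stress lists differed less or in both directions. Of 19 heat shock proteins 13 were higher and 6 lower, with a median of 0.12. Hsph1, a cytosolic cochaperone, was at 40.1 FPKM and 56.8 FPKM, 1.42-fold higher (1.36 to 1.47), and Hsp90aa1, the inducible cytosolic Hsp90, at 393 FPKM and 519 FPKM, 1.32-fold higher (1.30 to 1.34). Hspb1, a small heat shock protein abundant in muscle, was 1.80-fold lower (1.53 to 2.11) and Cryab, of the same family, 1.43-fold lower (1.22 to 1.68). Both of these were higher in NTD brain, as were the heart genes described below, and the part of muscle content in these values was not tested. The targets of ATF4 and the integrated stress response were evenly split, with 13 higher and 14 lower of 27 and a median of -0.01. Ddit3, the apoptotic factor CHOP, was at 3.66 FPKM and 2.92 FPKM.

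**Figure D3:**
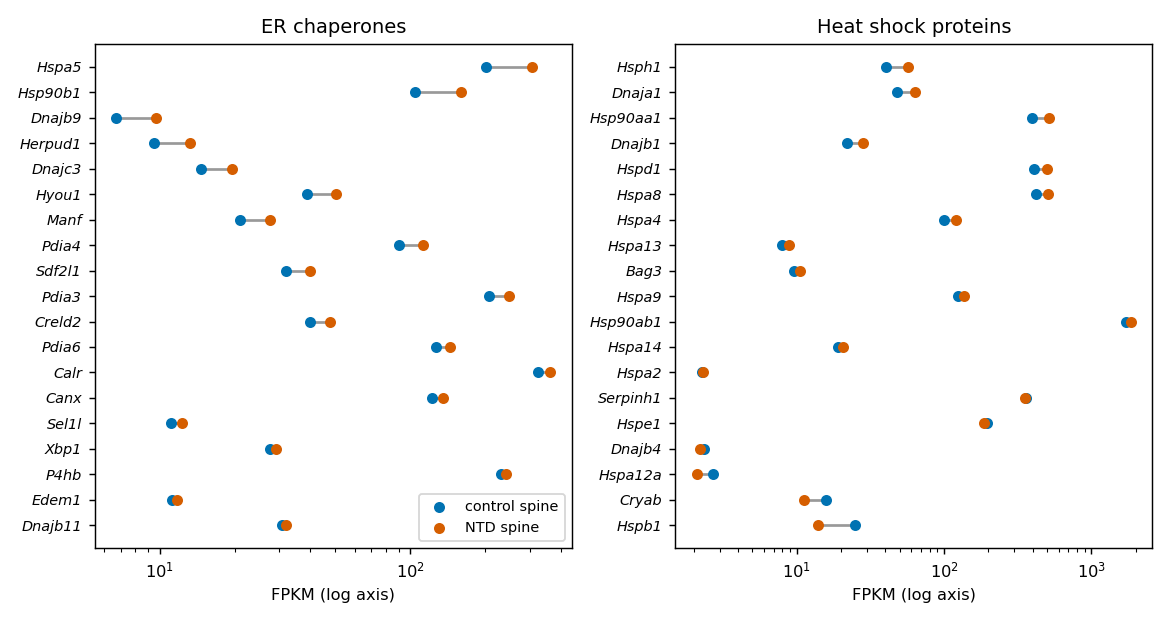
FPKM (log axis) of the 19 ER chaperones (left) and 19 heat shock proteins (right) in control spine (blue) and NTD spine (orange), ordered by log2 ratio. Every orange point on the left lies to the right of its blue partner, whereas on the right Hspb1 and Cryab lie the other way.

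Neural progenitors line the neural tube and are kept in that state by Sox and Notch signals. Of 20 compared progenitor genes 5 were higher and 15 lower in NTD spine. The median was -0.13, or -0.07 after adjustment for GC content and length, and 1 member was at least 2-fold lower. That member was Hes5, a repressor that Notch switches on, at 5.23 FPKM in the control and 1.90 FPKM in the NTD spine, 2.75-fold lower (1.92 to 4.003) on 116 and 43 reads. In brain it was at 6.64 FPKM and 3.39 FPKM. Hes3, a related repressor of early neuroepithelium, went the other way, from 1.98 FPKM to 3.93 FPKM, 1.99-fold higher (1.46 to 2.74). Sox2, which marks the whole neural plate, was at 45.8 FPKM and 37.5 FPKM, and Vim, an intermediate filament of progenitors and mesenchyme, at 150.1 FPKM and 129 FPKM. Fabp7, a lipid-binding protein of radial glia, was 1.47-fold lower (1.22 to 1.76).

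Notch signalling lets a cell that starts to differentiate hold its neighbours back. Of 21 compared ligands, receptors and targets 8 were higher and 13 lower, with a median of -0.10. The ligand Jag1 was at 10.2 FPKM and 11.7 FPKM and Dll1 at 17.5 FPKM and 17.4 FPKM, and the receptor Notch1 at 9.28 FPKM and 10.3 FPKM. Among targets and modifiers, Hes6, which promotes neurogenesis, was 1.63-fold lower (1.44 to 1.86) and Mfng, a glycosyltransferase that modifies Notch, 1.47-fold lower (1.26 to 1.71). The ligands and the receptor named here therefore stood at similar levels in both libraries, and the lower values were those of Hes5, Hes6 and Mfng.

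Proneural transcription factors commit progenitors to become neurons. In NTD spine 16 of the 17 compared members were lower, against 57.9% of all genes, and 1 was higher. At least 2-fold lower were 4, against 0.259% of all genes, and the median log2 ratio was -0.61. Among the members past 2-fold were Atoh1, Neurog1 and Nhlh1. Atoh1, which specifies the most dorsal interneurons, rested on 51 and 4 reads, at 1.48 FPKM and 0.114 FPKM, 13.0-fold lower (4.78 to 49.6). Neurog1, needed for sensory neurons, was at 6.09 FPKM and 2.39 FPKM, 2.54-fold lower (1.90 to 3.43), and in brain at 9.71 FPKM and 5.47 FPKM. Nhlh1, expressed as neurons leave the cycle, was at 6.71 FPKM and 2.59 FPKM. Neurog2, which drives motor neurons among others, was at 12.004 FPKM and 6.73 FPKM, 1.78-fold lower (1.52 to 2.09). The 1 member that was higher was Ebf2, at 2.69 FPKM and 2.76 FPKM.

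Genes of the neuronal cytoskeleton and axon were lower in 26 of 30 compared members, against 57.9% of all genes, with a median of -0.35. Lower by 2-fold or more were 3, against 0.259% of all genes. Nefm, the medium neurofilament subunit, was at 10.2 FPKM and 3.97 FPKM, 2.58-fold lower (2.29 to 2.91), and Ina, another intermediate filament of newborn neurons, at 6.22 FPKM and 2.38 FPKM, 2.61-fold lower (2.13 to 3.23). Tubb3, the neuronal beta tubulin, was at 48.0 FPKM and 22.3 FPKM, 2.15-fold lower (1.96 to 2.35), and in brain at 96.9 FPKM and 63.8 FPKM. Members that progenitors express as well differed less: Stmn1, a microtubule regulator, was at 147 FPKM and 125 FPKM, and Tubb2b at 109 FPKM and 88.2 FPKM. Robo2, an axon guidance receptor, was 1.31-fold higher (1.17 to 1.47). All 8 compared genes of synapse and secretion were lower, with a median of -0.28, led by the vesicle proteins Scg3 and Vamp2 at 2.14-fold (1.57 to 2.95) and 1.69-fold (1.52 to 1.88) lower.

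In brain the proneural list had a median of -0.62, with all 17 lower, and the cytoskeleton list -0.35. The brain pair shares no library with the spine pair but shares the treatment and whatever went with it. Genes that pattern the brain moved with these lists: of 27 forebrain and midbrain genes, 27 were above 0 in control spine and 22 in NTD spine, with summed levels of 36.1 FPKM and 20.9 FPKM. Their part in the neuronal values was not tested. The proneural sum in spine was 107 FPKM and 64.1 FPKM.

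Lists of named neuron classes had medians nearer to 0 than the proneural list. Of 7 compared motor neuron genes 5 were lower, with a median of -0.11, or 0.081 over those with a mean that reached 5 FPKM. The sum over the 16 genes of the list was 39.8 FPKM and 36.1 FPKM. Members below the level compared do not enter the median. Of these, Onecut2 had 232 and 148 reads, Lhx4 88 and 33, Lhx3 65 and 42, and Slc18a3 36 and 18. Mnx1 had 45 and 40 reads and Slc5a7 10 and 9. Lhx1, with 82 and 93 reads, Onecut1, with 32 and 33, and Chat, with 8 and 11, were higher. Isl1, the LIM factor that starts motor and sensory neuron identity, was at 7.78 FPKM and 8.40 FPKM, 1.08-fold higher (0.955 to 1.22), and its relative Isl2, which comes on after cell cycle exit, was 1.46-fold lower (1.11 to 1.92). Of 15 spinal interneuron genes 11 were lower, with a median of -0.24. Lhx5, a dorsal and intermediate interneuron factor, was lowest at 3.86-fold lower (2.27 to 6.89) from 1.55 FPKM. Its brain levels of 7.54 FPKM and 6.39 FPKM were above those of both spine libraries. Evx1, which marks a ventral interneuron class and also the tail bud, was 1.54-fold higher (1.19 to 2.01). Of 9 sensory ganglion genes 6 were lower, with a median of -0.18. Ret, a receptor of sensory and enteric precursors and of the nephric duct, was 1.30-fold higher (1.11 to 1.52).

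**Figure D4:**
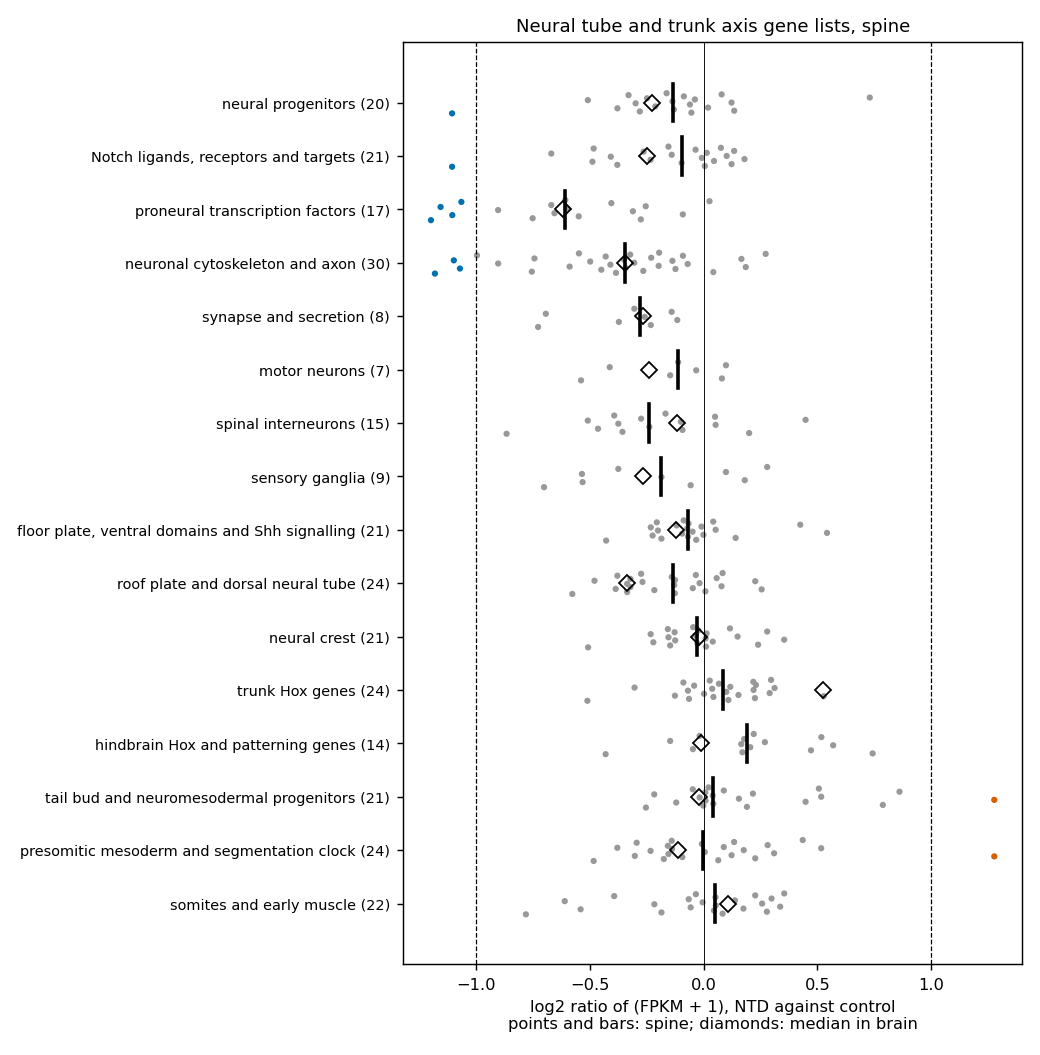
Log2 ratio of (FPKM + 1), NTD against control, of every compared member (points; blue and orange past 2-fold) of 16 neural tube and trunk axis lists in spine, with the spine median as a bar, the brain median as a diamond and the number compared in parentheses. Of these lists the proneural and cytoskeleton ones have the lowest medians, and the hindbrain and trunk Hox lists have medians above 0.

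The neural tube is divided from belly to back by Shh from the floor plate and by BMP and Wnt signals from the roof plate. Of 21 compared genes of the ventral domains and Shh signalling 16 were lower and 5 higher, with a median of -0.07 and none past 1.5-fold. Shh itself was at 7.90 FPKM and 7.34 FPKM, 1.08-fold lower (0.927 to 1.25), and Foxa2, which marks floor plate and endoderm, at 3.47 FPKM and 3.61 FPKM. Ptch1, the Shh receptor and a direct target of the pathway, was at 13.5 FPKM and 18.4 FPKM, 1.37-fold higher (1.31 to 1.43), while Gli1, another target, was 1.11-fold higher (1.02 to 1.21) and Gas1, a coreceptor that Shh represses, 1.35-fold lower (1.27 to 1.44). Olig2, which marks motor neuron progenitors, was 1.20-fold lower (1.02 to 1.41). Ptch1 and Gas1 thus differed by more than Shh and Foxa2, while the interval of Gli1 overlapped that of Shh. Foxa1, given with the endoderm factors below, had the highest log2 ratio of the list, 0.54.

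Dorsal genes were lower in 18 of 24 compared members, with a median of -0.13. Zic4 was lowest, at 1.48 FPKM and 0.664 FPKM, 2.23-fold lower (1.78 to 2.81), followed by Msx3, a homeobox gene confined to the dorsal neural tube, at 12.6 FPKM and 8.74 FPKM. Bmp5 was 1.28-fold higher (1.03 to 1.59). Pax3, which marks dorsal neural tube and somites and whose loss causes NTDs, was at 7.55 FPKM and 8.06 FPKM, 1.07-fold higher (0.966 to 1.18). Neural crest cells leave the dorsal tube at this stage, and of 21 of their genes 9 were higher and 12 lower, with a median of -0.03. Ets1, a cranial crest and endothelial factor, was 1.30-fold higher (1.22 to 1.39) and Sox8 1.74-fold lower (1.28 to 2.38), and Crabp1, a retinoic acid binding protein of migrating crest and the most abundant member, was at 435 FPKM and 373 FPKM. In brain 23 of the 24 dorsal genes were lower, against 57.2% of all genes.

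Position along the axis was read from Hox and brain patterning genes. Of 24 compared trunk Hox genes 17 were higher and 7 lower in NTD spine, with a median of 0.08 and none past 1.5-fold. Hoxb9, among the most abundant, was at 47.5 FPKM and 52.9 FPKM, 1.11-fold higher (1.05 to 1.18), and Hoxc8 at 11.7 FPKM and 12.7 FPKM. The spread was widest for Hoxa6, 1.48-fold higher (1.20 to 1.84), and Hoxd10, a gene of the posterior trunk and limb, 1.49-fold lower (1.23 to 1.81). Of 14 hindbrain genes 10 were higher, with a median of 0.19. Hoxb2, of the anterior hindbrain onwards, was at 2.82 FPKM and 5.39 FPKM, 1.91-fold higher (1.57 to 2.33), and Hoxb3 was 1.49-fold higher (1.33 to 1.68). Gbx1, also expressed in the dorsal spinal cord, was 1.63-fold lower (1.20 to 2.23).

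Forebrain and midbrain genes were lower in 22 of 24 compared members, against 57.9% of all genes, with a median of -0.46. Lower by 2-fold or more were 2, against 0.259% of all genes. En2 (chromosome 5, 28165694 to 28172166), which patterns the midbrain and cerebellum, was at 1.79 FPKM in the control and 0.102 FPKM in the NTD spine (103 and 6 reads). In brain it was at 17.7 FPKM and 13.5 FPKM. Otx2, which specifies the forebrain and midbrain, was at 2.21 FPKM and 0.457 FPKM in spine, and at 27.1 FPKM and 28.7 FPKM in brain. Fezf1, a forebrain gene, had 31 reads in control spine and 0 in NTD spine, at least 10.5-fold lower, and levels of 8.10 FPKM and 8.14 FPKM in brain. Otx2 and Fezf1 thus stood at similar levels in both brain libraries and were low in both spine libraries. Besides Fezf1, the forebrain genes Rax, Six6, Vax1 and Vax2 were at 0 in NTD spine, and no gene of the list was at 0 in control spine. In brain the list had a median of -0.13.

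The tail bud holds the neuromesodermal progenitors that build the lower spine. Of 21 compared genes 15 were higher and 6 lower in NTD spine, with a median of 0.04, or 0.21 after adjustment for GC content and length, and 1 was at least 2-fold higher. Msgn1 (chromosome 12, 11208360 to 11208972), which drives these cells to presomitic mesoderm, was at 3.31 FPKM and 9.43 FPKM, 2.85-fold higher (1.90 to 4.37) on 33 and 96 reads. Tbx6, its partner in that choice, was at 4.53 FPKM and 6.91 FPKM, 1.53-fold higher (1.22 to 1.91), and T (brachyury), which marks the progenitors and the notochord, at 7.91 FPKM and 11.7 FPKM, 1.47-fold higher (1.27 to 1.71). The caudal genes Cdx4 and Cdx2, which activate posterior Hox genes, were at 5.20 FPKM and 10.2 FPKM and at 5.25 FPKM and 9.78 FPKM, 1.97-fold (1.63 to 2.39) and 1.86-fold (1.56 to 2.23) higher. Among the signals of the tail bud, Fgf8 was at 6.69 FPKM and 5.62 FPKM, and Gdf11, which ends trunk formation, 1.21-fold lower (1.10 to 1.32). The 3 members past 1.5-fold were thus the transcription factors Msgn1, Cdx4 and Cdx2, while Sp8, also a transcription factor of the list, was 1.11-fold lower (0.953 to 1.28).

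Further along the same lineage the list medians lay close to 0. Presomitic mesoderm and clock genes were split evenly, with 12 higher and 12 lower of 24 and a median of 0.00. Msgn1, which this list holds too, was the 1 member past 2-fold, and Lfng, an oscillating gene of the clock, was 1.32-fold lower (1.18 to 1.49). Of 22 somite and early muscle genes 12 were higher and 10 lower, with a median of 0.05. Meox1 and Tcf15, which organise the somite, were 1.22-fold (1.15 to 1.28) and 1.20-fold (1.05 to 1.38) higher. Acta1, the skeletal muscle actin that the embryonic heart also expresses, was at 27.4 FPKM and 15.5 FPKM, 1.76-fold lower (1.56 to 2.0), and Scx, a tendon progenitor factor, 2.15-fold lower (1.35 to 3.50). Of 8 notochord genes 3 were higher and 5 lower, with a median of -0.03.

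Planar cell polarity, which aligns cells so that the neural plate narrows and lengthens, showed no member past 1.5-fold, with 11 higher and 15 lower of 26 and a median of -0.03. Prickle1 and Dact1 were 1.35-fold (1.22 to 1.49) and 1.29-fold (1.16 to 1.45) higher, Celsr2 1.26-fold lower (1.18 to 1.34), and Vangl2, whose loss leaves the tube open from midbrain to tail, was at 17.5 FPKM and 16.5 FPKM. Of 51 compared genes whose loss causes NTDs in mice 23 were higher and 28 lower, with a median of -0.04. The lowest was Folr1, which encodes a folate receptor of neural folds and yolk sac, at 1.77 FPKM and 0.524 FPKM, 3.37-fold lower (2.02 to 5.86) on 66 and 20 reads, and its brain levels were 1.67 FPKM and 1.77 FPKM. The highest were Cdx2 and Ptch1, given above, and Vcl, which ties adhesion sites to actin, 1.36-fold higher (1.27 to 1.47). Grhl3, an ectoderm gene needed for spinal closure, was at 2.27 FPKM in each library. Spint1 and Prss8, an inhibitor and a protease of the surface ectoderm, were 1.28-fold (1.09 to 1.52) and 1.25-fold (1.02 to 1.54) lower.

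Signalling readouts other than those above stayed close to the overall median. Canonical Wnt targets had 10 higher and 4 lower of 14 and a median of 0.03, FGF feedback genes 9 higher and 7 lower of 16 and a median of 0.03, and BMP and Id genes 7 higher and 13 lower of 20 and a median of -0.11. Axin2, the standard Wnt feedback target, was at 15.9 FPKM and 14.0 FPKM. Retinoic acid genes had 5 higher and 12 lower of 17 and a median of -0.02, with 1 at least 2-fold lower. That was Rbp4, the carrier of retinol in blood, which also stands on the carrier list. Aldh1a2, the enzyme that makes retinoic acid in somites, was at 34.0 FPKM and 46.8 FPKM, 1.38-fold higher (1.28 to 1.48), and Rdh10, which supplies its substrate, 1.31-fold higher (1.16 to 1.48).

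Folate and nucleotide genes are those nearest to the treatment. Tyms, the thymidylate synthase that uses folate, was at 17.2 FPKM and 17.9 FPKM, 1.04-fold higher (0.973 to 1.11). Of 26 compared genes of folate uptake and the folate cycle 13 were higher and 13 lower, with a median of 0.00. The highest were Cth, of transsulfuration, at 1.32-fold (1.14 to 1.53), and Mthfd1l, which makes formate in mitochondria, at 1.27-fold (1.20 to 1.36). Next to Folr1 the lowest was Slc46a1, a folate transporter, 1.26-fold lower (1.03 to 1.54). Purine synthesis genes were higher in 14 of the 18 compared, at a median of 0.14. Atic and Gart, enzymes of the pathway that use a folate cofactor, were 1.23-fold (1.17 to 1.28) and 1.20-fold (1.15 to 1.26) higher, and Gmpr, which runs the guanine branch backwards and is abundant in red blood cells, was 1.45-fold lower (1.21 to 1.74). Pyrimidine and deoxynucleotide genes had 12 higher and 9 lower of 21 and a median of 0.03, with Cad, the enzyme that starts pyrimidine synthesis, 1.28-fold higher (1.23 to 1.33).

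Targets of p53, the factor that halts or kills damaged cells, had 16 higher and 17 lower of 33 and a median of -0.01. The 1 member past 2-fold was Fos, which had been placed on this list as well and is an immediate early gene. Cdkn1a, the cell cycle inhibitor p21, was at 2.98 FPKM and 2.44 FPKM and Mdm2, the brake on p53, at 14.9 FPKM and 16.3 FPKM. DNA damage repair genes were higher in 36 of the 40 compared, at a median of 0.12 and none past 1.5-fold, and Rad50 and Nbn, partners in sensing double-strand breaks, were 1.29-fold (1.18 to 1.42) and 1.26-fold (1.14 to 1.4) higher. Adjusted for GC content and length, the median of this list was 0.06. DNA replication genes were higher in 32 of 45, with a median of 0.08, led by Mcm4, a subunit of the replicative helicase, at 85.1 FPKM and 112 FPKM, and mitosis genes were higher in 27 of 44, with a median of 0.06.

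Among genes of energy and growth, 1 gene of creatine metabolism was past 2-fold. Ckb (chromosome 12, 111669361 to 111672338), the brain creatine kinase that buffers ATP in neurons and neuroepithelium, was at 67.3 FPKM in the control and 31.8 FPKM in the NTD spine, 2.11-fold lower (1.99 to 2.25), and in brain at 70.9 FPKM and 37.4 FPKM. The levels in both NTD libraries were thus close to each other and below both controls. The other 3 compared genes of the list, which make or take up creatine, were lower too, from 1.22-fold (0.948 to 1.57) for Gamt to 1.63-fold (1.21 to 2.21) for Gatm. Glycolysis and hypoxia genes had 15 higher and 19 lower of 34 and a median of -0.04, with Ldhb, a lactate dehydrogenase, 1.53-fold lower (1.41 to 1.65). The highest member was 1 of 2 gene entries that share the name Aldoa, a glycolytic aldolase. Nuclear-encoded genes of oxidative phosphorylation were lower in 64 of 83, with a median of -0.13, or -0.06 after adjustment for GC content and length. Mitochondrially encoded genes were lower in 8 of 11, with a median of -0.02. Of all compared genes 57.9% were lower. Imprinted growth genes were higher in 14 of 19, with a median of 0.11: Igf2, a fetal growth factor, was 1.4-fold higher (1.28 to 1.54) and Phlda2 1.53-fold higher (1.19 to 1.97), while Cdkn1c, a cell cycle inhibitor, was 1.41-fold lower (1.31 to 1.50).

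Cytosolic ribosomal protein genes were lower in 65 of the 81 compared, at a median of -0.09, or -0.03 after adjustment for GC content and length. In brain the list went the other way, with 72 higher and 9 lower in NTD and a median of 0.11. Rps2 was at 552 FPKM and 258 FPKM in spine and at 318 FPKM and 295 FPKM in brain, so control spine stood apart from the other 3 libraries. Rpl35a was at 19.9 FPKM and 49.5 FPKM in spine and at 23.0 FPKM and 64.7 FPKM in brain. Both have processed pseudogenes that could take or lend reads, 11 and 6 of them named in the annotation, so both values are uncertain. DNA and histone methylation genes had 25 higher and 18 lower of 43 and a median of 0.08. Histone genes of the replication-dependent clusters had 5 higher and 13 lower of 18 and a median of -0.13, or 0.051 after adjustment for GC content and length, with Hist3h2ba at 8.41 FPKM and 2.45 FPKM, 3.43-fold lower (2.17 to 5.59).

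Red blood cells of the first, yolk sac wave fill the vessels at this stage, and all 35 genes of the list were above 0 in both spine libraries. Of 34 compared erythroid genes 33 were lower in NTD spine, against 57.9% of all genes, with a median of -0.54. At least 2-fold lower were 2, against 0.259% of all genes. The reads of the list made up 0.625% of the control spine total and 0.351% of the NTD spine total. In brain they made up 0.417% and 0.445%. The alpha-type globin Hba-a1 was at 699 FPKM in the control and 336 FPKM in the NTD spine, 2.08-fold lower (2.01 to 2.16), and the embryonic globins Hba-x and Hbb-y lay just outside 2-fold. In brain Hba-a1 was at 432 FPKM and 427 FPKM, so control spine held the most and NTD spine the least of the 4 libraries. Rhd, a red cell surface protein, was 4.57-fold lower (2.75 to 7.95), and Tal1, which starts blood and vessel formation, 1.39-fold lower (1.19 to 1.61). Tfrc, the transferrin receptor, which all dividing cells carry, was the exception at 26.2 FPKM and 28.4 FPKM. Pf4, a platelet and megakaryocyte chemokine, was at 7.59 FPKM and 3.09 FPKM, 2.45-fold lower (1.66 to 3.71).

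Secreted carriers of the yolk sac, gut and liver included Apoa1, which had the lowest log2 ratio of (FPKM + 1) of all compared genes. Of 20 compared members 14 were lower and 6 higher, with a median of -0.11, where 57.9% of all genes were lower. Lower by 2-fold or more were 8, against 0.259% of all genes. Apoa1, the main protein of high-density lipoprotein (chromosome 9, 46228580 to 46230466), was at 28.6 FPKM in the control and 3.51 FPKM in the NTD spine. It was 8.15-fold lower (6.37 to 10.6), with 2 and 0 reads in the brain libraries. S100g, a calcium-binding protein of absorptive epithelia, was at 12.9 FPKM and 2.26 FPKM, 5.73-fold lower (3.45 to 10.05). Apoa2 and Apom, 2 further apolipoproteins, were 3.19-fold (2.11 to 4.95) and 3.92-fold (2.62 to 6.02) lower. Afp, the fetal counterpart of albumin, was at 56.7 FPKM and 20.7 FPKM, and Ttr, a carrier of thyroid hormone, at 17.6 FPKM and 6.91 FPKM. Rbp4 and Trf, the carriers of retinol and iron, were 2.45-fold (2.10 to 2.86) and 2.54-fold (2.12 to 3.05) lower. Spp2, a secreted phosphoprotein that the list does not hold, was at 3.96 FPKM and 0.607 FPKM. Spp2 and S100g met the mean of 1 FPKM only through control spine, the library where both were high. Apoa1, Apoa2 and Apom would not have reached this mean with no reads in that library.

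The 5 compared transcription factors of endoderm on the same list were higher. Gata4 and Gata6 were 1.29-fold (1.15 to 1.44) and 1.24-fold (1.11 to 1.37) higher, Foxa1 was 1.62-fold higher (1.32 to 1.998), and Sox17 and Foxa2 differed less. Among the factors below the level compared, Hnf4a was lower, with 94 and 61 reads, and Foxa3 was higher, with 16 and 24 reads. Ambp, a plasma protein precursor, was 1.37-fold higher (1.04 to 1.81). Nepn, a secreted leucine-rich repeat protein of gut endoderm, was at 4.27 FPKM and 11.2 FPKM, 2.62-fold higher (2.15 to 3.20), with 0 and 13 reads in brain. Pyy, a gut peptide hormone, had 5 and 38 reads, 7.45-fold higher (2.93 to 24.2), and in brain 9 and 0 reads, the opposite direction. Pyy met the mean of 1 FPKM only through NTD spine, the library where it was high. The sum over the carrier list was 331 FPKM in the control and 196 FPKM in the NTD spine. Of its 39 genes 37 were above 0 in control spine, with Ahsg and Apoc3 at 0, and 39 in NTD spine. Whether yolk sac, gut or liver was left on the trunk is not given, and its part in these values was not tested.

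Heart genes were lower in 21 of 29 compared members in NTD spine, with a median of -0.47 and none past 2-fold, while in brain 28 of the 29 were higher in NTD, with a median of 1.03. All 33 genes of the list were above 0 in both spine libraries. Their sums were 1010 FPKM and 697 FPKM in spine and 76.5 FPKM and 281 FPKM in brain. The contractile genes Myl3, Myh7 and Tnnc1 were 1.83-fold (1.65 to 2.03), 1.83-fold (1.72 to 1.95) and 1.77-fold (1.59 to 1.98) lower. Myh6, the atrial myosin heavy chain, was at 46.4 FPKM and 33.2 FPKM, and Actc1, cardiac actin, at 307 FPKM and 211 FPKM. Gata4, Gata6 and Gata5, cardiac factors that endoderm also expresses, were the 3 highest members, with Gata5 1.10-fold higher (0.923 to 1.31). Whether the heart was left on the trunk is not given, and its part in these values was not tested.

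Other tissues of the trunk were near balance. Endothelial genes had 12 higher and 13 lower of 25 and a median of 0.00: Cdh5, the junction protein that defines the lineage, was at 19.7 FPKM and 20.96 FPKM, Egfl7 1.58-fold lower (1.39 to 1.80) and Etv2, which starts the lineage, 1.54-fold higher (1.02 to 2.35). Thus the blood genes were lower in NTD spine while the vessel genes as a list had a median of 0.00. Surface ectoderm genes had 8 higher and 13 lower of 21 and a median of -0.02, limb and lateral plate genes 13 higher and 11 lower of 24 and a median of 0.03, and kidney precursor genes 8 higher and 5 lower of 13 and a median of 0.05. Head mesenchyme genes were lower in 12 of 17, against 57.9% of all genes, with a median of -0.20, or -0.10 after adjustment for GC content and length. Of 30 collagen and matrix genes 14 were higher and 16 lower, with a median of -0.10, or -0.03 after that adjustment. Col1a1, of fibrillar collagen, was at 81.2 FPKM and 42.4 FPKM, 1.91-fold lower (1.85 to 1.98), and in brain at 12.03 FPKM and 5.88 FPKM. Macrophage genes were sparse, with 3 of 16 compared and a summed level of 12.9 FPKM and 11.2 FPKM.

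**Figure D5:**
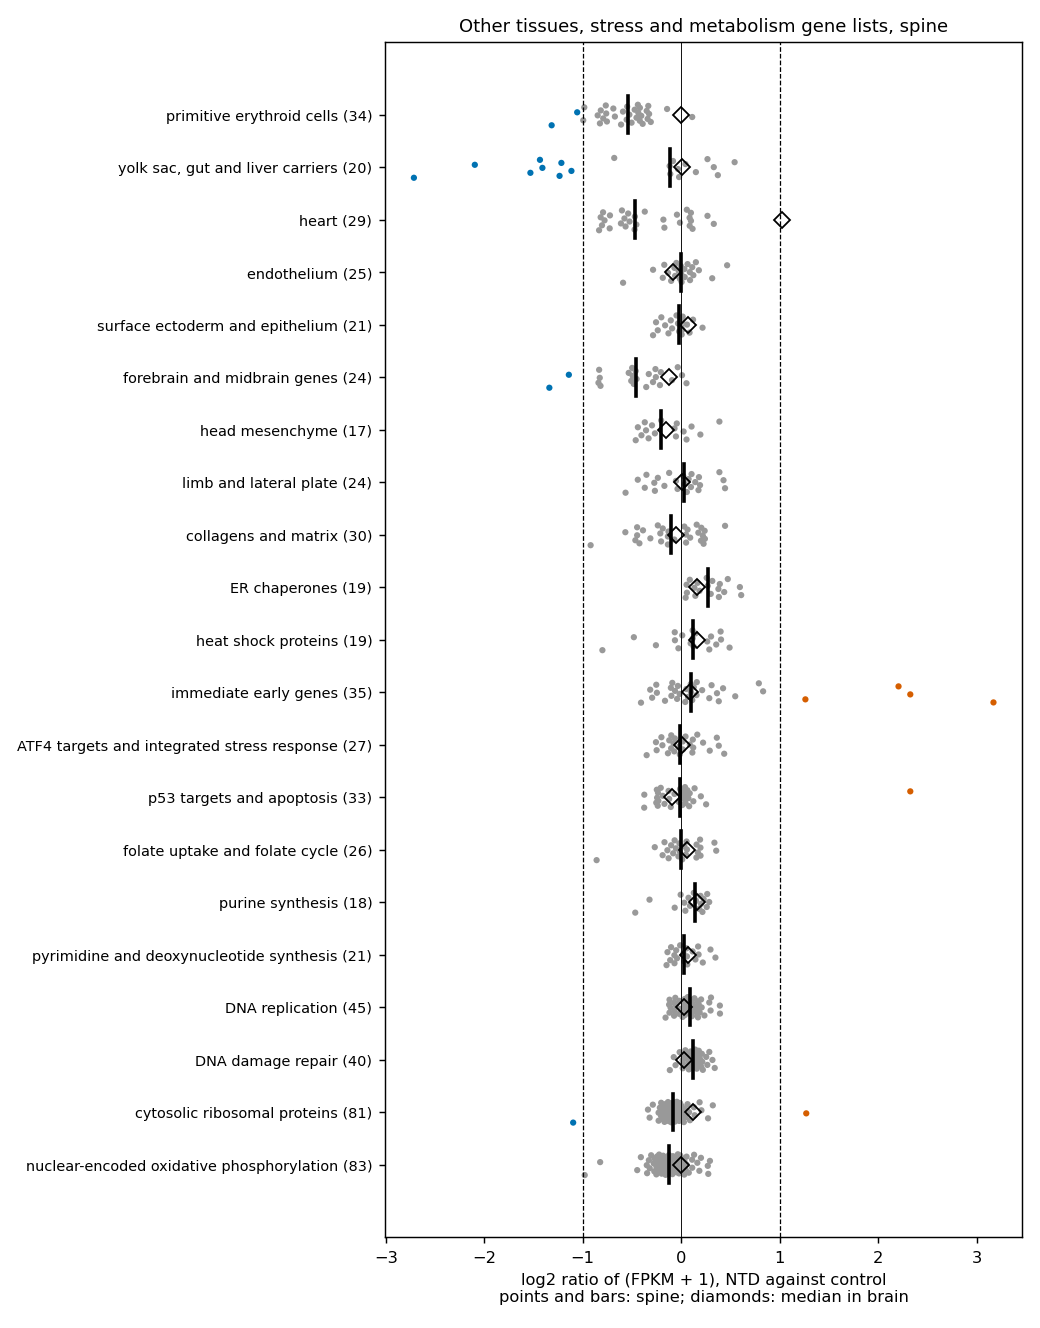
Log2 ratio of (FPKM + 1), NTD against control, of every compared member (points; blue and orange past 2-fold) of 21 lists of other tissues, stress, metabolism and growth in spine, with the spine median as a bar, the brain median as a diamond and the number compared in parentheses. The erythroid and heart lists lie to the left in spine with brain medians of 0.00 and 1.03, 8 carriers lie past 2-fold, and the ER chaperones all lie to the right of 0.

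Further called genes belong to no group above. Spaca6, a sperm membrane protein gene, was at 7.43 FPKM and 2.69 FPKM in spine and at 7.64 FPKM and 2.84 FPKM in brain, 2.76-fold (2.42 to 3.15) and 2.69-fold (2.37 to 3.06) lower. The 2 controls thus stood at similar levels, and so did the 2 NTD libraries. The exons of Spaca6 overlap the microRNA gene Mir125a, and how shared reads were counted is not given. BC049730 was at 4.76 FPKM and 0.912 FPKM in spine and at 4.13 FPKM and 1.79 FPKM in brain. Men1, the tumour suppressor menin and a partner of histone methyltransferases, was at 1.70 FPKM and 4.54 FPKM, 2.67-fold higher (2.13 to 3.37), and in brain at 1.93 FPKM and 2.18 FPKM. Of the 10 higher genes 9 had the same sign in brain, where 42.8% of all genes were higher by any amount. At least 2-fold higher in brain were 4 of the 10, against 0.304% of all genes. Of the 29 lower genes 22 had the same sign in brain, where 57.2% of all genes were lower by any amount. The opposite sign was found for 5, and Apoa2 and Spp2 had no reads in either brain library. Some signs in brain, in both sets, rest on few or equal reads. Apoa1 had 2 and 0 reads there, S100g 1 and 0, Ttr 0 and 1, Msgn1 0 and 3, and 1700092M07Rik 15 and 15. At least 2-fold lower in brain were 2 of the 29, Spaca6 and Atoh1, against 0.0626% of all genes.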

How the data were processed

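RNA-seq libraries of brain and spine from E9.5 CD-1 embryos, 4 in all, were grouped by sample title, 1 to a group. FPKM of 28765 genes were deposited by the authors in 1 table. The submitters' processing notes name HISAT2 2.0.1 and mm10. The read counter, its annotation and the use of strand were not given in these sources, and reads of genes that overlap on opposite strands cannot be told apart.

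Of the identifiers, 28698 matched GENCODE M21 (GRCm38), which gave type, position and exon length. Multiplied by exon length, the FPKM of a library fall on whole multiples of a smallest step, and that step gives its total and the reads of each gene. Within 0.01 reads, 10990 of the 11187 compared genes (98.2%) were whole in all libraries; the other 197 have no interval. At these totals 1 FPKM in a gene of 1 kb stands for 16.3 reads in control spine and 16.6 in NTD spine. Against 0 reads a fold is a bound computed with a floor of 3 reads in that library. The recovery of totals and the intervals were tested on simulated reads.

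The measure was the log2 ratio of FPKM with a pseudocount of 1, called at 2-fold. No p-value was computed. Alternatives covered the pseudocount, the filter, the scaling, gene classes, the threshold, GC content and length. Calculations used Python 3.11.15 with pandas 2.3.3, scipy 1.17.1 and numpy 2.4.6. Promoters came from the RefSeq table of GRCm38.p6 and were searched for 8 motifs on both strands.

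The members, the 54 gene lists and the naming rule were chosen with earlier results of these data known, and nothing here is independent support for those results. Named were the called genes, the members past 2-fold, the 3 highest, the 3 lowest and the up to 3 most abundant of each list, genes at the 2-fold line, and a short list of marker genes, some of which are not reported here. Some named genes fall outside that rule and were chosen after their values were seen. They are Jun, Cdkn1a, Mdm2, Vangl2, Grhl3, genes below the level compared, and most genes of the closing observations. The same holds for genes named only for a value of 0, a motif match or a missing promoter.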

Additional observations from a re-analysis of the deposited data

How the results depend on the processing

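With 1 library per group there is no replicate error, and leaving out a replicate could not be done. No paired analysis was possible because each group holds 1 library. The counts of 10 genes at least 2-fold higher and 29 lower moved with the pseudocount: 19 and 103 with 0.1 FPKM, 5 and 6 with 5 FPKM, so that 15.6% and 45.5% of calls were higher, against 25.6%. They were 4 and 19 where the mean had to reach 5 FPKM, 23 and 48 over every annotated gene of 300 bases or longer, 34 and 181 at 1.5-fold, and 3 and 2 at 4-fold. In an alternative added after seeing the data, which left out the erythroid, carrier, heart, endothelium, macrophage and forebrain lists, 10 and 17 remained. Counts stayed within 1.5-fold of the main ones under the other settings. They were 10 and 34 without a filter, 10 and 29 under each of 3 other scalings, and 10 and 22 after adjustment for GC content and length. Without genes whose exons overlap another gene, a setting added later, they were 10 and 22. With intervals that exclude equality they were 10 and 29, but these intervals come from the reads that made the calls.

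Of 408 list medians under these settings, 378 moved by no more than 0.1. Another sign than the main one was found for 42 of them, over 19 lists, and 2 of these had a main median of 0.1 or more in size: motor neuron genes had 0.081 where the mean had to reach 5 FPKM, and replication-dependent histones 0.051 after adjustment for GC content and length. The cause was not tested. Of 2508 values of named genes, 60 had another sign, all for genes with a main log2 ratio of at most 0.19 in size, and none was past 2-fold. Of 38 named genes past 2-fold, 10 stayed past 2-fold with a pseudocount of 5, and 31 after the adjustment.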

Other observations

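Between 1.5-fold and 2-fold lay 24 higher and 152 lower genes, and the genes named here were chosen after their values were seen. Sst (somatostatin, a peptide hormone) was at 5.46 FPKM in the control and 2.67 FPKM in the NTD spine, 2.04-fold lower by reads (1.32 to 3.22), and in brain at 17.1 FPKM and 8.25 FPKM. Trh (thyrotropin-releasing hormone) was at 1.82 FPKM and 0.566 FPKM, 3.22-fold lower (1.69 to 6.55), while its brain levels of 13.8 FPKM and 13.7 FPKM were nearly equal. Tac2, a tachykinin precursor, was 2.04-fold lower (1.38 to 3.06), Sct (secretin) 2.88-fold lower (1.41 to 6.34) and Nppc, a natriuretic peptide precursor, 2.58-fold lower (1.44 to 4.83). Gal (galanin) went the other way, at 1.09 FPKM and 2.29 FPKM, 2.10-fold higher (1.08 to 4.29).

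Arg1 and Ass1 belong to the urea cycle, whose other genes were not listed here. Arg1, which splits arginine, was at 27.0 FPKM and 45.3 FPKM, 1.67-fold higher (1.55 to 1.81), and in brain at 2.44 FPKM and 7.36 FPKM. Ass1, which makes the precursor of arginine, was at 3.95 FPKM and 1.80 FPKM, 2.20-fold lower (1.65 to 2.95), and in brain at 2.03 FPKM and 0.981 FPKM. For each enzyme the brain pair differed in the same direction as the spine pair.

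Prtg (protogenin), a membrane protein of the early neural tube and mesoderm, was at 30.9 FPKM and 48.7 FPKM, 1.58-fold higher (1.52 to 1.64). Tubb1, the beta tubulin of platelets, was at 2.05 FPKM and 0.600 FPKM, 3.43-fold lower (1.85 to 6.74), beside the lower level of the platelet gene Pf4. Pklr, the pyruvate kinase of red cells and liver, was 2.14-fold lower (1.77 to 2.60), and its brain levels of 3.98 FPKM and 3.62 FPKM lay closer together.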
